A study of Mus musculus with 2 samples.

Results

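The mir-101 family and the mir-221 and mir-222 family comprise 4 of the 2202 annotated mouse miRNA genes counted in these libraries, Mir101a, Mir101b, Mir221 and Mir222. They were taken by gene symbol in the GENCODE annotation, with earlier results of these data known. All 4 had at least 10 reads in both libraries. The libraries were small RNA libraries from the hippocampus of female B6CASTF1/J mice, an F1 cross of C57BL/6J and CAST/EiJ, aged 36 days. They form 1 group of 2 biological replicates with no treatment and no second age, tissue or genotype, so the comparisons concern levels, paralogs and the spread between replicates. The labels give both libraries the same donor entry and different biosample entries, so separate animals are not established and the spread may be technical in part.

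MicroRNAs (miRNAs) are cut from hairpin precursors and guide Argonaute proteins to messenger RNAs, mostly by pairing of the seed, bases 2 to 8 of the mature strand. The miRNAs of mir-101 are known repressors of Ezh2, the methyltransferase of Polycomb repressive complex 2, and in hippocampal neurons have been linked to the limiting of excitability during development. The miRNAs of mir-221 and mir-222 come from a shared primary transcript on the X chromosome, repress the cell cycle inhibitor Cdkn1b (p27) and the receptor tyrosine kinase Kit, and are well known from endothelium, vascular smooth muscle and glial tumours.

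RefSeq (GRCm38.p6) holds hairpins for all 4 genes and 7 mature sequences. The 3p strands, from the 3′ side of the hairpin, are shown because their seeds are compared below. They are given 5′ to 3′ with the seed in capitals.
miR-101a-3p: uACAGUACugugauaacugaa
miR-101b-3p: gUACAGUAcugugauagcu
miR-221-3p: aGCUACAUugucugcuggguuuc
miR-222-3p: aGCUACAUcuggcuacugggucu

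The seeds divide the 4 genes into 3 groups. The 3p strands of Mir221 and Mir222 shared the seed GCUACAU and were identical over their first 8 bases. Beyond that they diverged, with 11 of 23 positions identical in all. One further mature miRNA in the RefSeq table, miR-1928, carries this seed, and its gene Mir1928 had 0 reads in both libraries. The 3p strands of Mir101a and Mir101b share a run of 15 bases, but the annotated miR-101b-3p starts 1 base earlier. Its seed is therefore UACAGUA, against ACAGUAC in miR-101a-3p, and neither seed occurs in a mature miRNA of another gene in the table. In the frame of miR-101a-3p, counted from 1 at its 5′ end, the Mir101b hairpin differs at a single base of this strand, A16G.

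The mir-101 strands also read the same on both strands over 10 bases. The run ACAGUACUGU is its own reverse complement and covers positions 2 to 11 of miR-101a-3p and 3 to 12 of miR-101b-3p. Of the 1738 mature sequences in the table, 16 (0.921%) hold a self-complementary run of at least 10 bases, and the median longest run was 4 bases. In miR-221-3p and miR-222-3p the longest such run was AGCU.

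The hairpins show how the paralogs differ outside the mature strand, with the 3p strand in capitals.
Mir101a: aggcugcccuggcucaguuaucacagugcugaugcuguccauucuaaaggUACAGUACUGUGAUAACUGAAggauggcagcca
Mir101b: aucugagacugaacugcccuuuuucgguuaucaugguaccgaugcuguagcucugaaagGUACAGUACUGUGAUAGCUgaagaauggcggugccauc
Mir221: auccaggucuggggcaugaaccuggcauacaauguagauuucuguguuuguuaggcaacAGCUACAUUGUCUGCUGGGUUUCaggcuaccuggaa
Mir222: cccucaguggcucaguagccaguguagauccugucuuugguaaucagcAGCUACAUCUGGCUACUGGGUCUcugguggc

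Mir101a (ENSMUSG00000065451.1) spans positions 101346945 to 101347027 of chromosome 4, minus strand (mm10), within an exon of the long noncoding RNA gene E130102H24Rik. Mir101b (ENSMUSG00000065556.1) spans 29135279 to 29135375 of chromosome 19, plus strand, in an intron of Rcl1, which encodes a protein of ribosomal RNA processing, and in the same orientation. Mir221 (ENSMUSG00000065422.1) spans 19146294 to 19146388 of chromosome X and Mir222 (ENSMUSG00000065471.1) 19146893 to 19146971, both on the minus strand with 504 bases between them. Neither overlaps another annotated gene in release M21, and the nearest other gene is Gm14636, a noncoding transcript, at 10009 bases from Mir222. No member overlaps another miRNA gene on either strand. Counts with and without the use of strand were accordingly identical for all 4, and antisense reads were 0 at each in both libraries.

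The mature sequences were specific to their genes within the annotation. Those of Mir101b, Mir221 and Mir222 occurred in no transcript of another gene among 141767 searched on both strands, and those of Mir101a occurred elsewhere only in E130102H24Rik, the gene that surrounds it. The longest run shared with another annotated hairpin was 13 bases for Mir221 and 12 bases for Mir222. Mir101a and Mir101b shared 20 bases, which begin 5 bases before miR-101a-3p and end before the differing base. Mir101a also shared 19 bases with Mir101c, an annotated gene on chromosome 9 whose whole mature sequence of 19 bases is contained in miR-101a-3p, as the capitals show in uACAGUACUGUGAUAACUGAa. Mir101c had 0 reads in both libraries, but a read of its mature strand would also fit Mir101a. A read confined to such a run has more than 1 place and was not counted for any gene. The counts of Mir101a and Mir101b may therefore be too low for short reads, and the 0 of Mir101c does not show that it was absent. Places outside annotated transcripts were not analysed here.

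Reads were counted per hairpin, so the 3p and 5p strands were not told apart. Values are counts per 1000000 sense reads on miRNA genes (CPM), with n = 2 libraries. Assigned reads numbered 2928141 in replicate 1 and 3644157 in replicate 2. A count of 0 allows up to 3 reads, which is 1.02 and 0.823 CPM. Reads with several places made up 38.9% and 45.8% of all reads in the tables and are outside every value. For scale, neuronal Mir137 was at 9112 and 12631 CPM, and endothelial Mir126a was at 14516 and 8969 CPM. Without a second tissue these levels cannot check the tissue label. All intervals are exact Clopper-Pearson intervals at 95% and cover counting error only.

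Mir221 was the most abundant member. It had 27344 reads in replicate 1 and 20045 in replicate 2, or 9338 CPM (9229 to 9449) and 5501 CPM (5425 to 5577). Its mean was 7419 ± 2714 CPM (SD, n = 2), and it ranked 19th and 36th of all genes in replicates 1 and 2. Its neighbour Mir222 had 2581 and 4255 reads, or 881 CPM (848 to 916) and 1168 CPM (1133 to 1203), with a mean of 1025 ± 202 CPM and ranks of 98 and 87. Mir221 was thus higher in replicate 1 and Mir222 in replicate 2.

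The mir-101 genes were lower. Mir101b, the more abundant of both, had 1457 reads in replicate 1 and 2856 in replicate 2, or 498 CPM (472 to 524) and 784 CPM (755 to 813), with a mean of 641 ± 202 CPM and ranks of 134 and 108. Mir101a had 576 and 1350 reads, or 197 CPM (181 to 213) and 370 CPM (351 to 391), with a mean of 284 ± 123 CPM and ranks of 172 and 143. Both were higher in replicate 2.

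The order Mir221, Mir222, Mir101b, Mir101a held in both libraries. No value of one gene fell within the range of the next: the lower value of Mir222, 881 CPM, was above the higher value of Mir101b, 784 CPM, and the lower value of Mir101b, 498 CPM, was above the higher value of Mir101a, 370 CPM. With 2 libraries a group no exact test over samples could reach 0.05, and none was run on this order. Inserts were under 30 bases per the labels, the size of a whole mature strand, so counts were not divided by hairpin length (79 to 97 bases). They are shares of reads and were not calibrated to molecules.

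**Figure D1:**
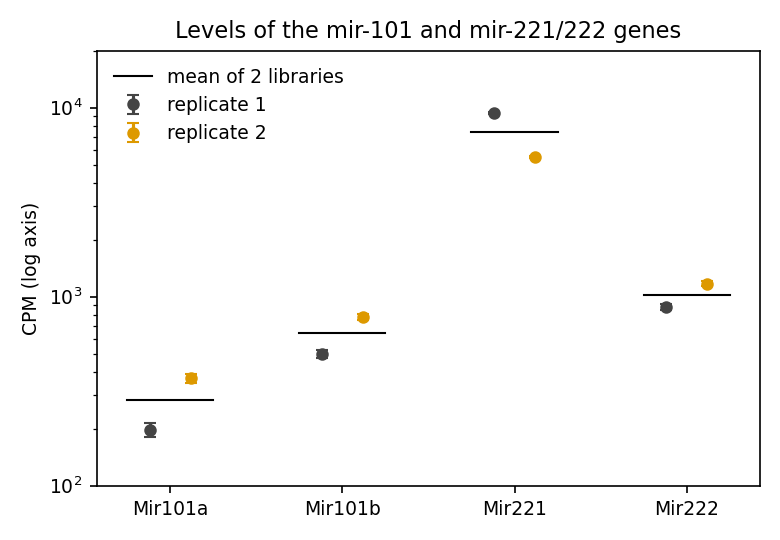
CPM of the 4 genes (log axis) in replicate 1 and replicate 2, with 95% exact intervals of counting error and the mean of both libraries as a line. Mir221 lies between 5501 and 9338 CPM, above the other 3 genes, and is the single gene of the 4 with its higher value in replicate 1.

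Together the 4 genes took 1.09% and 0.782% of the assigned reads of replicates 1 and 2. The pair of Mir221 and Mir222 held 10220 and 6668 CPM (mean 8444 ± 2511, SD, n = 2) and the mir-101 pair 694 and 1154 CPM (mean 924 ± 325). The pair on the X chromosome therefore had 14.7 times the reads of the mir-101 pair in replicate 1 and 5.78 times in replicate 2.

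Within each family 1 paralog took most of the reads. Mir101b had 2.53 reads for each read of Mir101a in replicate 1 (2.30 to 2.79) and 2.12 in replicate 2 (1.98 to 2.26), which is 71.7% and 67.9% of the mir-101 reads. The intervals do not overlap, by a narrow margin, and the ratio in replicate 2 was 0.836 times that in replicate 1. Short reads with more than 1 place are missing from both genes, perhaps unequally. Mir101a shares 19 bases with Mir101c, and Mir101b shares 14. The effect of this loss on the ratio was not tested. Mir221 had 10.6 times the reads of Mir222 in replicate 1 (10.2 to 11.03) and 4.71 times in replicate 2 (4.56 to 4.87), so that Mir222 gave 8.62% and 17.5% of the reads of its pair. The Mir222 to Mir221 ratio was 2.25 times higher in replicate 2. Library totals do not enter these ratios.

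**Figure D2:**
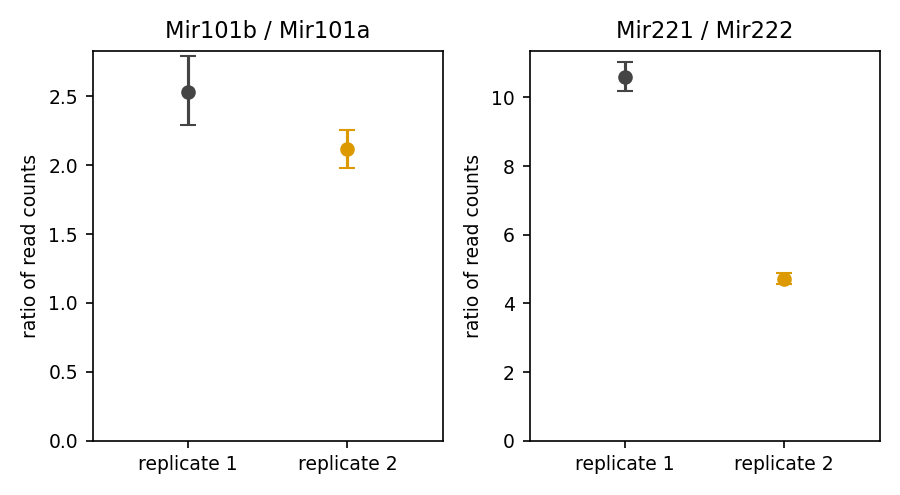
Ratio of read counts between paralogs in each library (linear axes from 0), with 95% exact binomial intervals. Mir101b over Mir101a was 2.53 and 2.12, and Mir221 over Mir222 was 10.6 and 4.71, in replicates 1 and 2.

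All 4 genes differed between the libraries by more than counting error. Mir101a was 1.88-fold higher in replicate 2 (1.71 to 2.08), a log2 difference of 0.91 (two-sided exact binomial test on reads, Benjamini-Hochberg adjusted over 474 genes, p = 9.10e-39). Mir101b was 1.58-fold higher in replicate 2 (1.48 to 1.68; log2 difference 0.65, adjusted p = 4.03e-46, exact test). Mir222 was 1.32-fold higher in replicate 2 (1.26 to 1.39; 0.41, adjusted p = 3.45e-29, exact test). Mir221 went the other way and was 1.70-fold higher in replicate 1 (1.67 to 1.73; log2 difference -0.76), with an adjusted p too small for the computation to hold.

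These calls say little that is particular to the 4 genes. The same exact test called 58.0% of the 474 genes tested, with 31.6% of genes higher in replicate 2 and 26.4% in replicate 1. Its calls split into 150 higher in replicate 2 against 125 higher in replicate 1. With all reads of the tables as total the split was 194 against 73. TMM scaling gave 135 against 133, and omitting the most abundant gene from the totals turned the majority, to 126 against 142. It compares 2 libraries and not conditions, and it takes counting error as the only noise. Over the 295 genes averaging 50 reads or more, the median difference between libraries was 1.27-fold. Of these genes, 46 (15.6%) differed by more than Mir101a, 61 (20.7%) by more than Mir221, 75 (25.4%) by more than Mir101b and 132 (44.7%) by more than Mir222. The 4 genes lay in the outer part of this spread, apart from Mir222, and none was at its edge.

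**Figure D3:**
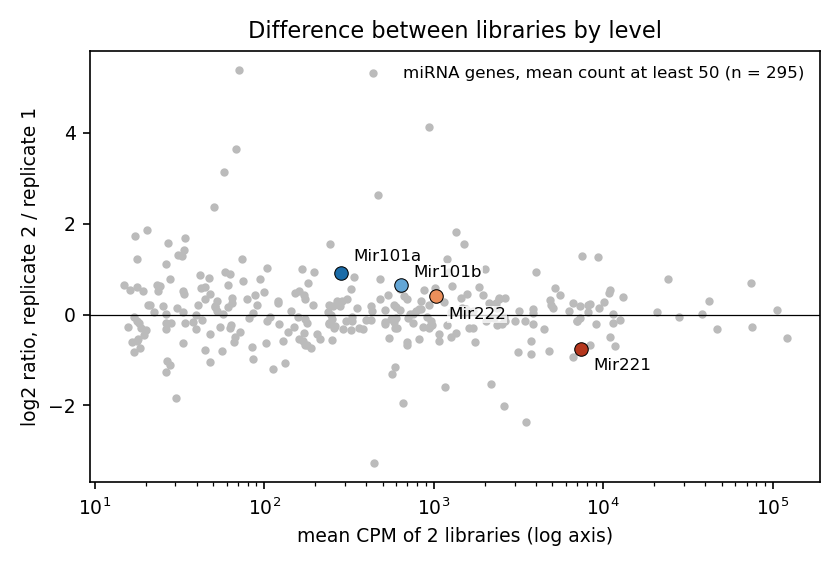
log2 ratio of replicate 2 to replicate 1 against mean CPM (log axis) for 295 miRNA genes averaging 50 reads or more (grey), with the 4 genes in colour. Mir101a, Mir101b and Mir222 lie above 0 at 0.91, 0.65 and 0.41, and Mir221 lies below it at -0.76, all inside the spread of the other genes.

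Mir221 and Mir222 lie 504 bases apart on 1 strand and were called in opposite directions. Among 75 pairs of adjacent miRNA genes on the same strand, at most 10000 bases apart and averaging 50 reads or more each, 21 (28.0%) were called in opposite directions and 27 in the same direction. The count of 21 was 17 with totals that omit the most abundant gene and 11 with all reads of the tables as total. The log2 ratios of Mir221 and Mir222 differed by 1.17, the tenth of the 75 pairs in size, where the median was 0.38. Among the pairs with larger gaps were Mir296 and Mir298 (1.83), Mir34c and Mir34b (1.79), Mir497 and Mir195a (1.41) and Mir16-1 and Mir15a (1.34). On the X chromosome 10 pairs were measured, and the other one called in opposite directions was Mir188 and Mir532. The X pairs Mir351 and Mir503 (1.28) and Mir542 and Mir351 (1.19) differed by more than Mir221 and Mir222. Of these genes Mir351 was called, higher in replicate 2, and Mir503 and Mir542 were not. This set of pairs was drawn up after the values of Mir221 and Mir222 were seen and carries no test. Pairs that share a gene are not independent, and 37 of the 75 lie on chromosome 12.

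**Figure D4:**
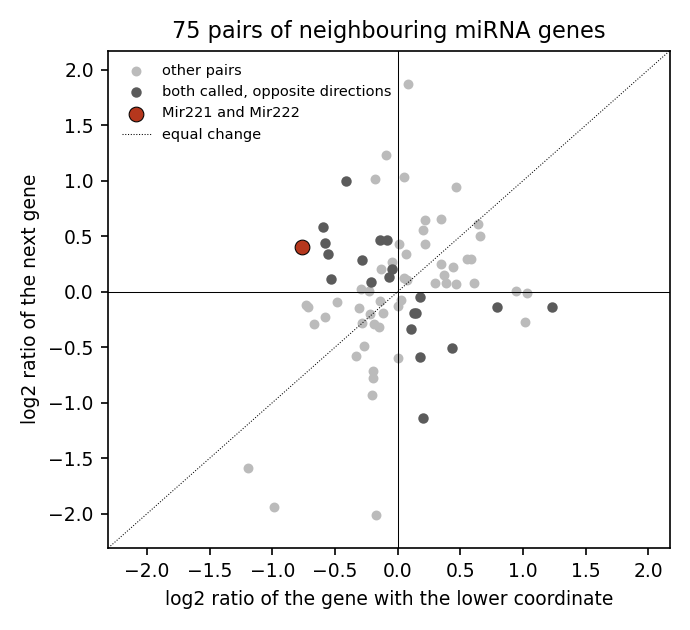
log2 ratios of replicate 2 to replicate 1 for the members of 75 pairs of neighbouring miRNA genes, with the gene of lower coordinate on the horizontal axis. Mir221 and Mir222 (red) sit at -0.76 and 0.41, away from the dotted line of equal change, among 21 pairs called in opposite directions (dark).

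Mir144, whose 3p strand shares its first 7 bases with miR-101a-3p, is a miRNA of red blood cells. It had 337 and 210 reads, or 115 and 57.6 CPM, and was 2.00-fold higher in replicate 1 (1.68 to 2.38), opposite to both mir-101 genes. Its seed ACAGUAU differs from that of miR-101a-3p at the last base, C8U.

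The X chromosome carries 142 of the annotated miRNA genes, of which 34 were detected (10 or more reads per library). Its 41 tested genes included 20 called higher in replicate 2 and 9 called higher in replicate 1. Over all 474 genes tested the counts were 150 and 125, or 31.6% and 26.4%. The median log2 ratio of the X genes was 0.25, against 0.04 over all genes tested. Linked genes enter these values more than once. Mir764, Mir1912, Mir1264, Mir1298 and Mir448 lie between positions 147002259 and 147158321. Each was called toward replicate 2, at log2 ratios from 1.22 to 4.13, though Mir1912 had 0 and 20 reads and was not detected. Gm22650, which starts before them at 146999405, was not called (log2 ratio 1.03, adjusted p = 0.0982, exact test). Mir98 and its neighbour Mirlet7f-2 were both called higher in replicate 1. Such neighbours are not independent, and a shift of the whole chromosome was not tested. Mir221, at 7419 CPM, stood second there, between Mir652 (11407 ± 10.9 CPM) and Mir98 (6600 ± 2906 CPM). Mir98, a let-7 gene, was also higher in replicate 1, while Mir652 was not called (adjusted p = 0.897, exact test).

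In counts per gene, other miRNAs known to repress Ezh2 ranged from far above to below the mir-101 genes. All 10 listed genes were detected, against 376 of all 2202 genes. Of the 10, 5 were called higher in replicate 2 and 5 in replicate 1, and the median log2 ratio was 0.02. Over all 474 genes tested, 31.6% were called higher in replicate 2 and 26.4% in replicate 1. Mirlet7b was at 102692 and 109414 CPM and Mirlet7e at 28192 and 27320 CPM, well above Mir101b at 498 and 784 CPM. Mirlet7a-1 (423 and 339 CPM), Mir26a-1 (7.51 and 27.2 CPM) and Mir26a-2 (11.3 and 18.4 CPM) were below Mir101b in both libraries. Mir26b was 2.40-fold higher in replicate 2 and both Mir138 genes were higher in replicate 1, so the list did not move with Mir101a and Mir101b as a whole. Several of its genes, among them Mirlet7a-1 and those of Mir138 and Mir26a, yield the same mature strand from more than 1 locus. Reads with several places were counted for no gene, so their counts per gene may be too low. A place of Mirlet7a-1 and the Mir26a genes below Mir101b is therefore not established.

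Markers of cell types differed between the libraries as well, and their part in the differences above was not tested. The summed level of 3 erythroid genes was 1176 CPM in replicate 1 and 340 CPM in replicate 2, with all 3, led by Mir451a, called higher in replicate 1. That of 6 astrocyte genes was 17226 and 11806 CPM, with all 6, Mir29a and Mir22 first among them, called higher in replicate 1. For 3 oligodendrocyte genes it was 5352 and 2536 CPM, with Mir219a-2 and Mir338 called higher in replicate 1. Mir221 was also called higher in replicate 1, as were 26.4% of all genes tested.

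Endothelial and mural genes, the cells from which Mir221 and Mir222 are best known, gave mixed directions. Of 5 listed genes 3 were detected. Mir126a of endothelium was called toward replicate 1 (14516 and 8969 CPM), and Mir143 (4740 and 6401 CPM) and Mir145a of mural cells toward replicate 2. Calls toward replicate 2 made up 31.6% of the 474 genes tested, and calls toward replicate 1 made up 26.4%. A link of the listed cell types to Mir221 or Mir222 was not tested. Among 8 neuronal genes, summed to 37381 and 42440 CPM, 5 were called higher in replicate 2 and 3 in replicate 1, with Mir137 among the former and Mir132 among the latter. Of 4 genes of microglia and leukocytes, summed to 1546 and 1846 CPM, Mir150 and Mir223 were called higher in replicate 2 and Mir146 in replicate 1. Mir142 was not called (57.4 and 64.8 CPM, adjusted p = 0.329, exact test). Mir223 had 1 and 23 reads and so was not detected, with fewer than 10 reads in replicate 1. In tissue RNA, fewer cells of a type and less RNA per cell cannot be told apart.

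The genes nearest in level, by mean log2 CPM over the 2 libraries, were called in the same direction as the member in 7 of 12 cases, where calls over all genes split 54.5% to 45.5%. Nearest to Mir101a were Mir3475, Mir30c-2 and Mir877, with means from 262 to 280 CPM. Nearest to Mir101b was Mir153, a neuronal miRNA, at 513 and 761 CPM against 498 and 784 CPM, followed by Mir666 and Mir146. Nearest to Mir221 were Mir99b, Mir411 and Mir379, each with a smaller spread (SD 294 to 637 CPM) than Mir221. Nearest to Mir222 were Mir29c, Mir150 and Mir154. With 2 libraries this likeness is one of level only.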

How the data were processed

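Small RNA libraries of 2 hippocampus samples were analysed. The deposited values are whole-number read counts per miRNA gene, not normalized, in 3 columns without names, read as unstranded, sense and antisense. Accompanying notes of the submitters name assembly mm10 and GENCODE M21, and the aligner is not given in the sources used here. Rows that name no gene held 69.5% and 65.3% of reads and were left out of totals. All 2202 identifiers matched GENCODE M21.

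CPM used the sense total on miRNA genes, with a pseudocount of 1 CPM for log2 values. With 1 group, no condition was tested. The 474 genes with 10 or more reads over both libraries entered a two-sided exact binomial test of replicate 2 against replicate 1. It was conditional on the library totals, with Benjamini-Hochberg adjustment (threshold 0.05). The test was also run on simulated data with counting error as the only noise. That simulation cannot show how the test behaves under further spread between libraries. Ratios have exact binomial intervals. Detection required 10 reads or more per library.

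Members and lists were chosen with earlier results of these data known. Named genes are the members, Mir101c, Mir144, the 3 detected genes nearest to each member in level, leading genes of each list and the 3 highest on chromosome X. A further list of miRNAs is not reported here. Neighbouring pairs, further list members and genes sharing a seed were named after their values were seen. Alternatives were unstranded counts, scaling by edgeR (TMM, version 4.0.16) and DESeq2 (size factors, version 1.42.0), other totals, filters and pseudocounts, and leaving out either replicate. Sequences are from RefSeq (GRCm38.p6). Python 3.11.15, scipy 1.17.1 and R 4.3.3 were used.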

Additional observations from a re-analysis of the deposited data

How the results depend on the processing

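The direction and call of all 4 genes held under each of 9 alternatives of scaling, strand, filter and pseudocount. Several of these could hardly have changed them. The pseudocount does not enter the test, the filters leave the reads and totals unchanged, and the counts of the 4 genes are the same without strand. Changes of the library totals are therefore the informative part. The log2 ratio ranged from 0.84 to 1.09 for Mir101a, 0.58 to 0.84 for Mir101b, -0.83 to -0.58 for Mir221 and 0.34 to 0.59 for Mir222. With all reads of the table as total, the mean CPM was 94.4 for Mir101a, 212 for Mir101b, 2380 for Mir221 and 337 for Mir222, since most reads are on no gene row. That total shifted the median log2 ratio of 295 genes by 0.19, against at most 0.07 in size for the other scalings, and moved the share of calls higher in replicate 2 from 54.5% to 72.7%. It also left 11 neighbouring pairs called in opposite directions, against 21. The count of called genes stayed between 241 and 275, but the number tested changed with the filter. Called were 241 of 334 genes at a summed count of at least 50, 275 of 474 in the main setting and 263 of 723 without a filter. The share called therefore depended on the filter. Leaving out a replicate leaves a single library, with no test, and its values are those given per library. No paired analysis was possible because there is 1 group. Depth did not limit the 4 genes, the lowest of which had 576 reads, but 2 libraries limit any statement on spread.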
